A study of Mus musculus with 4 samples.

Results

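Iron-sulfur clusters are small cofactors of iron and sulfide that are built on dedicated proteins and then handed to enzymes of respiration, DNA replication and repair, translation and metabolism. In mitochondria, a cysteine desulfurase supplies sulfur, ferredoxin supplies electrons, and the cluster forms on a scaffold protein before chaperones and carriers pass it on. A second machinery in the cytosol depends on the mitochondrial one and serves cytosolic and nuclear proteins. Iron reaches the mitochondrial matrix through the mitoferrin carriers of the inner membrane. Transferrin receptor 1 (TfR1), the product of *Tfrc*, is a major route of iron into the cell. In the study its loss lowered the iron of Treg cells only in part, which the study relates to uptake of iron not bound to transferrin.

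The genes described here are 32 named members of these pathways: the mitochondrial core complex (5 genes), chaperone transfer (4 genes), late mitochondrial assembly (7 genes), iron carriers and membrane proteins (5 genes), the cytosolic scaffold and its electron chain (6 genes), and cytosolic targeting (5 genes). They were picked by name and function, not by a measured value, though earlier results of these data were known. Each was looked up by symbol or older symbol among the 47729 genes of the count table, in which 22368 genes had a count. All 32 were found, and all 32 passed the filter on low counts that left 12536 genes for testing. *Narfl*, *Fam96a* and *Fam96b* are also known as *Ciao3*, *Ciao2a* and *Ciao2b*.

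RNA was sequenced from Treg cells of C57BL/6 mice that carried the *Foxp3* YFP-Cre allele on 1 of 2 X chromosomes (*Foxp3* YFP-Cre/+), with 2 libraries from *Tfrc* fl/fl mice (TfR1-deficient) and 2 from *Tfrc* +/+ mice (WT). Both genotypes therefore carried Cre, made from the *Foxp3* locus, and were female. Because of random X inactivation each mouse also keeps Treg cells without Cre, and the sort for CD25+YFP+ cells takes those with it. The labels give spleen as the tissue, whereas a legend of the study says that the cells came from lymph nodes as well as spleens. Mice other than male *Tfrc* fl/fl mice with the Cre allele were aged 6 to 8 weeks in the study as a whole, with no age stated for these libraries alone, and the number of mice behind a library is not given in the sources used here. The study called the replicates biological; where libraries were not from separate mice, the p-values measure only the spread between libraries.

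The libraries held 10841939 to 17278448 counts. *Tfrc* did not separate the genotypes, at 50.7 and 54.0 CPM (counts scaled by TMM to a common library size) in WT and 56.0 and 48.2 CPM in the TfR1-deficient libraries, so that each direction below rests on the labels. Its count spans the whole gene and does not show whether the floxed part was deleted. All 7 Treg markers were present in every library, with a summed level of 4351 and 4049 CPM in WT and 3509 and 3089 CPM in TfR1-deficient cells. Of the 7, 6 had a negative fitted difference. *Ctla4* was lower at the unadjusted threshold used below, with a log2 fold change of -0.81. Its unadjusted p was 0.00145 and its adjusted p 0.911 in edgeR, and its adjusted p was 0.00073 in DESeq2. *Cd3e* had an unadjusted p of 0.0383 in edgeR with a smaller log2 fold change, -0.43. The first principal component, with 62.6% of the variance, put WT replicate 1 and TfR1-deficient replicate 2 together against the other 2 libraries. Of 14 macrophage markers all had a positive fitted difference and 0 passed the unadjusted threshold used below; their summed level was 991 and 39.0 CPM in WT replicates 1 and 2 and 44.5 and 3199 CPM in TfR1-deficient replicates 1 and 2. The 15 proliferation markers summed to 2580 and 1229 CPM in WT and 1385 and 2520 CPM in TfR1-deficient cells, and the 12 erythroid markers to 89.7 and 252 CPM and to 147 and 559 CPM. The part of these cell types in any difference below was not tested beyond the values given with it.

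The proximal promoters of 3 members are shown, as examples of 3 of the patterns in the data: a low-level gene with both TfR1-deficient libraries on top (*Glrx5*), a gene that hardly moved (*Grpel1*), and a gene that followed the libraries rather than the genotype (*Lyrm4*). Each is the stretch of 250 bases before the transcription start in RefSeq on GRCm38.p6, read 5′ to 3′ on the strand of the gene. *Glrx5* is at chr12:105032368-105032617 on the plus strand, *Grpel1* at chr5:36464935-36465184 on the plus strand and *Lyrm4* at chr13:36117358-36117607 on the minus strand. Capitals mark CCAAT boxes, GC boxes (GGGCGG) and the ETS-type motif CCGGAAG on either strand.
Glrx5: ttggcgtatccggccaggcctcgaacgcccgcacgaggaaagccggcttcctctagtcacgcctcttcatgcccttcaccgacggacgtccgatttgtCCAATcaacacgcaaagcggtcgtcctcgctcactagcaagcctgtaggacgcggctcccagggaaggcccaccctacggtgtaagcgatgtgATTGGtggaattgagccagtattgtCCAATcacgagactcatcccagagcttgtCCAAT
Grpel1: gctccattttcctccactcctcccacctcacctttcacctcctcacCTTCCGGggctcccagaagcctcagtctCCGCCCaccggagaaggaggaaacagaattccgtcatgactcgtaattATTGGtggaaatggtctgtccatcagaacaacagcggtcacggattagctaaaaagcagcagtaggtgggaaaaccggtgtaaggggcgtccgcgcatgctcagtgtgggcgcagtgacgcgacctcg
Lyrm4: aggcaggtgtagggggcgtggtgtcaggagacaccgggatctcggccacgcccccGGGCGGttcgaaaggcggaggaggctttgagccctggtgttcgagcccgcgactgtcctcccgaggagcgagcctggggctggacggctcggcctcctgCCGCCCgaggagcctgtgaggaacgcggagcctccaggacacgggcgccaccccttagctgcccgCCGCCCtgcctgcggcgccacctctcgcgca

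The *Glrx5* window held 4 CCAAT boxes and none of the other motifs searched, *Grpel1* held 1 CCAAT box, 1 GC box and 1 ETS-type motif, and *Lyrm4* held 3 GC boxes. Of the 27 members with a window in the table, 15 (55.6%) held a CCAAT box and 17 (62.96%) a GC box, against 37.5% and 35.4% of all 27025 genes with such a window. An ETS-type motif was in 6 members (22.2%, against 7.83% of all genes), the NRF1-type motif (GCGCA, then any base, then GCGC) in 4 (14.8%, against 4.23%), and the E-box CACGTG in 3 (11.1%, against 6.86%). The motifs were searched on both strands, no motif contains another, and a match is a description of letters and not of a bound factor. The members are genes used by most cells, and the shares were not compared with those of other such genes. Windows were not used for *Iscu*, *Hscb*, *Hspa9*, *Slc25a37* and *Abcb8*.

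All steps of the pathway were transcribed in the sorted cells, at levels that differed by 127-fold between the highest and the lowest member when counts were set to exon length (RPKM, mean of the 4 libraries). *Glrx3*, a cytosolic glutaredoxin, led with 110.1 to 122 RPKM, and *Fam96a* followed with 107 to 117 RPKM. Their ranges overlapped, and those of *Nubp2*, *Isca2* and *Hspa9* overlapped next to them, at 47.1 to 75.6 RPKM. The lowest were *Iba57* with 0.345 to 1.46 RPKM, *Fdx1* with 0.964 to 1.40 RPKM, *Nubpl* with 0.987 to 1.795 RPKM and *Glrx5* with 0.604 to 2.12 RPKM. Of the 31 pairs of neighbours in the order, 25 overlapped over the 4 libraries.

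The transcripts of the mitochondrial core group differed in level. *Nfs1* ran at 11.1 to 14.2 RPKM and *Lyrm4* at 5.87 to 16.8 RPKM, whereas the scaffold *Iscu* ran at 2.37 to 4.62 RPKM. Exon lengths were those of GENCODE vM1, and only 76.8% of 50-base windows of the *Iscu* exons occur once in NCBIM37, with 60.0% for *Glrx3* and 68.1% for *Isca1*. How reads that map to several places were counted is not given in the sources used here, so the levels of these 3 genes may hold fewer or more reads than the genes produced.

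**Figure D1:**
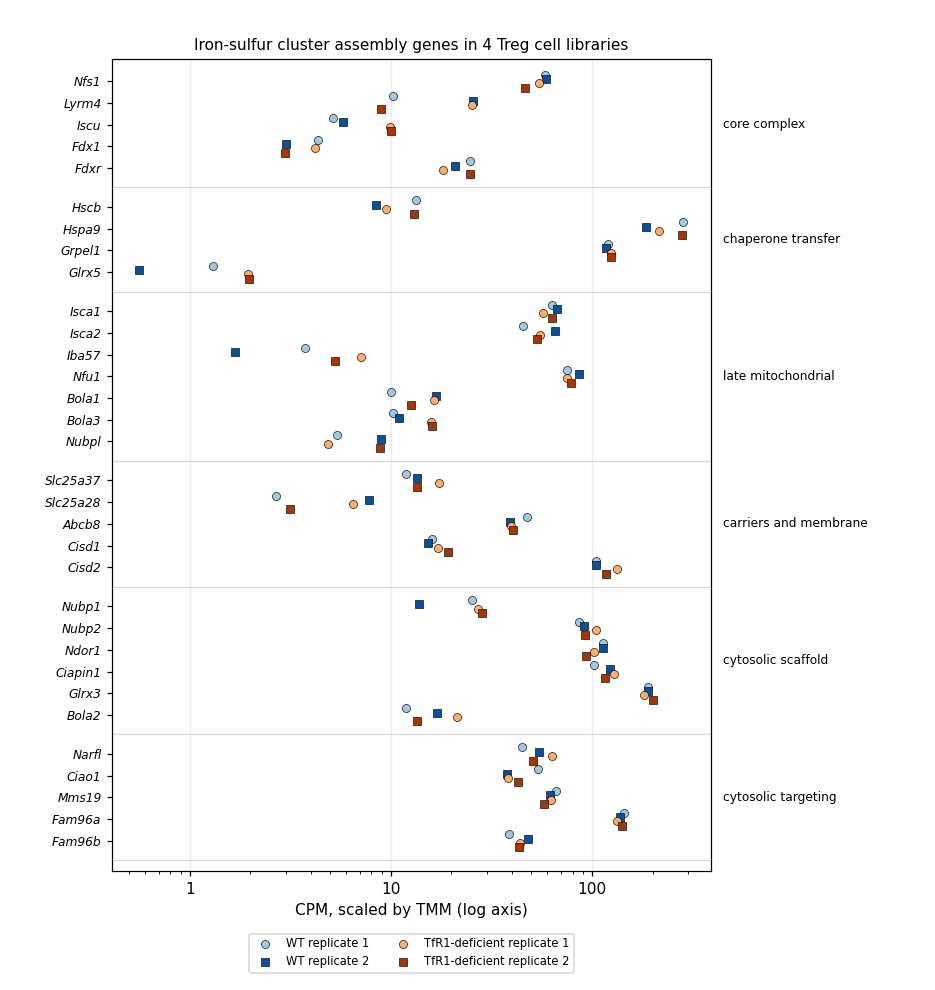
Level of each of the 32 genes in the 4 libraries, as TMM-scaled CPM on a log axis (1 point per library, blue for WT and orange to brown for TfR1-deficient, circles for replicate 1 and squares for replicate 2), in 6 groups by role. *Iscu*, *Bola3* and *Cisd2* have both TfR1-deficient points to the right of both WT points, while *Lyrm4* and *Slc25a28* split by library, with WT replicate 2 and TfR1-deficient replicate 1 on the high side.

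Between genotypes, *Iscu* was the only 1 of the 32 genes to pass even the lenient threshold of the study, and it did not pass after adjustment. At an adjusted p under 0.05, 0 of the 32 were called by the quasi-likelihood test of edgeR (Benjamini-Hochberg over all genes tested), and 0 of all 12536 genes (0%); DESeq2 also called 0 of the 32, beside 0.311% of all genes. At the study's own kind of threshold, an unadjusted p under 0.05 with a log2 fold change of at least 0.5, 1 member was higher (*Iscu*), against 1.6% of all genes, and 0 were lower, against 2.48%. DESeq2 also gave 1 and 0 at the unadjusted threshold. The shares of 1.6% and 2.48% come from edgeR with all libraries. They cannot be set against the DESeq2 counts or against the next counts, from fits without 1 library. Leaving out WT replicate 1 gave 2 higher members (*Iba57* and *Nubp1*), and leaving out any other single library gave 0. A fitted log2 fold change of 0.5 or more, whatever its p, was found in 5 members (*Iba57*, *Glrx5*, *Iscu*, *Bola3* and *Nubp1*), against 11.6% of all genes, and a change of -0.5 or less in 0, against 8.69%. The median log2 fold change was 0.03 over the members and 0.01 over all genes tested; that of the members was 0.05 without WT replicate 1, 0.18 without WT replicate 2, 0.032 without TfR1-deficient replicate 1 and 0.10 without TfR1-deficient replicate 2.

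Both TfR1-deficient libraries lay above both WT libraries in 10 members (*Iscu*, *Grpel1*, *Glrx5*, *Iba57*, *Bola3*, *Slc25a37*, *Cisd1*, *Cisd2*, *Nubp1* and *Nubp2*), against 16% of all genes, and below both in 3 (*Nfs1*, *Isca1* and *Ndor1*), against 18.9%. For 1 gene, an exact permutation test of 2 libraries against 2 gives a p of 0.333 at the smallest. A share of counts in a bulk library does not tell fewer cells of a type from less RNA per cell.

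The size of change that these libraries could leave unseen differs from gene to gene. The 95% interval of the log2 fold change lay within -1 and 1 for 21 of the 32 members and within -0.5 and 0.5 for 7 of them. It included 1, a doubling, in 11 members and -1 in 4. The median absolute log2 fold change was 0.12 over the members and 0.21 over all genes tested. For the members, the median gap was 0.27 between the WT replicates and 0.16 between the TfR1-deficient replicates. A gap is between single libraries and a fold change is between groups, so they are not like measures.

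**Figure D2:**
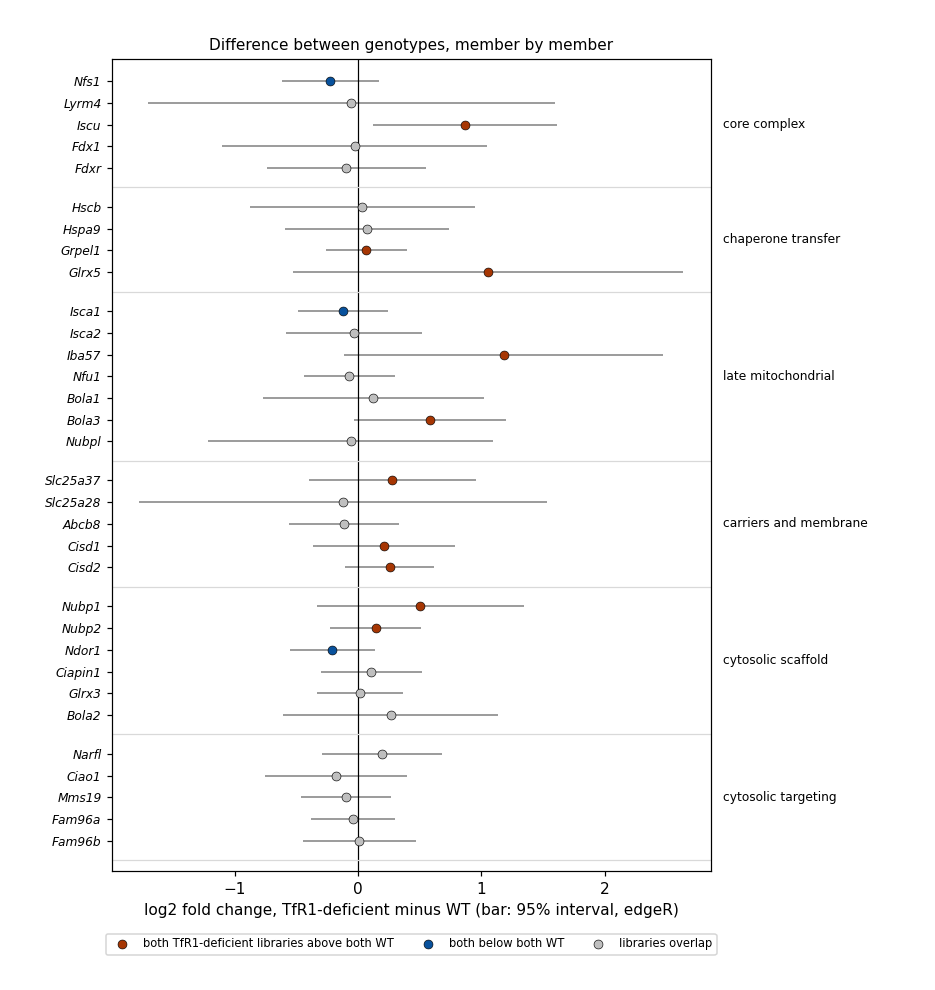
Log2 fold change of each gene (point; TfR1-deficient minus WT) with its 95% interval from edgeR (bar), in the same 6 groups. The interval of 31 genes includes 0 and that of *Iscu* runs from 0.12 to 1.61; filled brown and blue points mark genes whose libraries did not overlap between genotypes (10 above, 3 below), and grey points the others.

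In the mitochondrial core complex, the scaffold and the desulfurase had opposite signs. *Iscu* (chromosome 5, 113772418 to 113778288 in GRCm38.p6), on which the cluster is formed, was at 5.15 and 5.80 CPM in WT and at 9.90 and 10.1 CPM in TfR1-deficient cells. The 4 libraries rest on 63, 62, 172 and 138 counts, and both TfR1-deficient values stood well clear of the WT pair. Its log2 fold change was 0.87 (SE 0.29), with an unadjusted p of 0.0307 and an adjusted p of 0.911 in edgeR's quasi-likelihood test. DESeq2 gave 0.88 with an unadjusted p of 0.0298. The unadjusted call was lost whichever library was left out, with log2 fold changes of 0.79 without WT replicate 1, 0.95 without WT replicate 2, 0.88 without TfR1-deficient replicate 1 and 0.85 without TfR1-deficient replicate 2. The macrophage and proliferation sums were high in 1 library of each genotype. The Treg marker sum was lower in both TfR1-deficient libraries (3509 and 3089 CPM) than in WT (4351 and 4049 CPM). The part of cell types in the *Iscu* difference was not tested.

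*Nfs1* (chromosome 2, 156123637 to 156144202), the cysteine desulfurase, was at 58.5 and 59.3 CPM in WT and at 54.5 and 46.4 CPM in TfR1-deficient cells. Both TfR1-deficient libraries were below both WT libraries, with a log2 fold change of -0.22 (SE 0.16) and an adjusted p of 0.941 in edgeR, and the gap between the TfR1-deficient replicates, -0.23, was as large as the difference. Exons of other genes overlap 17.3% of its exon bases, and 2 of those 3 genes are on the same strand. *Fdx1* (a mitochondrial ferredoxin), *Fdxr* (ferredoxin reductase) and *Lyrm4* (the small partner that steadies the desulfurase) had log2 fold changes of -0.03, -0.09 and -0.05, each with overlapping libraries. *Fdx2*, a ferredoxin counted below with the other assembly genes, was at 18.6 and 7.86 CPM in WT. It was at 9.96 and 12.5 CPM in TfR1-deficient cells (log2 fold change -0.23).

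*Lyrm4* shows why a fold change near 0 is not the same as a steady level. It was at 10.2 and 25.5 CPM in WT and at 25.4 and 8.89 CPM in TfR1-deficient cells. WT replicate 2 and TfR1-deficient replicate 1 were the high libraries, the pair in which the summed macrophage markers were at 39.0 and 44.5 CPM and the proliferation markers at their lower levels. Its replicates differed by 1.31 on the log2 scale within WT and by -1.50 within TfR1-deficient cells (replicate 2 minus replicate 1), and the 95% interval of its genotype difference ran from -1.704 to 1.596.

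Among the chaperone and transfer genes, *Hspa9*, the mitochondrial HSP70 that also serves protein import, was the most abundant member by counts. Its levels were 285 and 185 CPM in WT and 215 and 280.4 CPM in TfR1-deficient cells. The high libraries were WT replicate 1 and TfR1-deficient replicate 2, as for both the proliferation and the macrophage sums. The log2 fold change was 0.07 (SE 0.26, edgeR adjusted p = 0.9905). *Hscb*, the J-protein that brings the scaffold to it, ran in the same order at 13.4 and 8.42 CPM in WT and 9.44 and 13.0 CPM in TfR1-deficient cells. *Grpel1*, the nucleotide exchange factor of the same chaperone, held a narrow range of 117 to 124 CPM over the 4 libraries (log2 fold change 0.07, 95% interval -0.26 to 0.40).

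*Glrx5* (chromosome 12, 105032618 to 105040911), the mitochondrial glutaredoxin that carries the new cluster onward and whose loss impairs heme synthesis in red cell precursors, was among the lowest members. It had 16 and 6 counts in WT and 34 and 27 counts in TfR1-deficient cells, or 1.31 and 0.562 CPM against 1.96 and 1.97 CPM. The TfR1-deficient libraries were nearly equal and above WT, but the WT pair differed by 1.04 on the log2 scale, as much as the genotypes did (log2 fold change 1.05, SE 0.62, edgeR adjusted p = 0.934, 95% interval -0.53 to 2.64). It was 1.799 without WT replicate 1 and 0.58 without WT replicate 2. The summed erythroid markers were at 89.7 and 252 CPM in WT and at 147 and 559 CPM in TfR1-deficient cells. All 9 erythroid markers tested had a positive fitted difference. Of these, 1 (*Epb42*) had both TfR1-deficient libraries above both WT libraries, with 2 and 3 against 17 and 17 counts. Its unadjusted p was 0.0324 and its adjusted p 0.911 in edgeR. The part of erythroid cells in the *Glrx5* values was not tested. With 83 *Glrx5* counts over the 4 libraries, neither a doubling nor an equal level was outside its 95% interval.

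Late mitochondrial assembly turns small clusters into the larger kind and delivers them to lipoate synthase and the respiratory chain. *Iba57* (chromosome 11, 59155368 to 59164567), which works with *Isca1* and *Isca2* in making the larger cluster, was at 3.76 and 1.68 CPM in WT and at 7.14 and 5.25 CPM in TfR1-deficient cells. Both TfR1-deficient libraries were higher, by a log2 fold change of 1.18 (SE 0.51) with an unadjusted p of 0.0662 and an adjusted p of 0.911 in edgeR. The unadjusted threshold was passed without WT replicate 1 (log2 fold change 1.88) and where all genes with a count were tested (1.19), and missed by more without WT replicate 2 (0.72). Its partners had values near 0: *Isca1* was at 63.6 and 67.2 CPM in WT and 57.0 and 63.2 CPM in TfR1-deficient cells, and *Isca2* at 45.2 and 65.6 CPM and at 55.1 and 53.2 CPM, with log2 fold changes of -0.12 and -0.03.

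*Bola3* (chromosome 6, 83349147 to 83360136), which helps *Nfu1* to deliver clusters, was the most even within genotypes of the 5 members with a log2 fold change of 0.5 or more. It was at 10.3 and 10.95 CPM in WT and at 15.9 and 16.0 CPM in TfR1-deficient cells, with replicate gaps of 0.09 and 0.01 on the log2 scale. The log2 fold change was 0.58 (SE 0.24), with an unadjusted p of 0.0597 and an adjusted p of 0.911 in edgeR, and a 95% interval of -0.03 to 1.201. With library totals in place of TMM factors the unadjusted threshold was passed (0.62). *Nfu1* itself ran at 75.5 to 86.3 CPM in the 4 libraries (log2 fold change -0.07), and *Bola1*, the related mitochondrial protein, at 9.97 to 16.8 CPM (0.12), both with overlapping libraries. *Nubpl*, needed for the clusters of respiratory complex I, was at 5.39 and 8.89 CPM in WT and at 4.89 and 8.82 CPM in TfR1-deficient cells. In both genotypes replicate 2 was the higher library.

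The iron carriers and membrane proteins hold the members closest to iron itself. *Slc25a37* (mitoferrin 1, the carrier on which red cell precursors depend) was at 11.9 and 13.48 CPM in WT and at 17.3 and 13.56 CPM in TfR1-deficient cells. WT replicate 2 and TfR1-deficient replicate 2 were almost equal, and the log2 fold change was 0.28 (SE 0.26, edgeR adjusted p = 0.954). *Slc25a28* (mitoferrin 2, the carrier of most other cells) was at 2.697 and 7.77 CPM in WT and at 6.44 and 3.13 CPM in TfR1-deficient cells. As for *Lyrm4*, WT replicate 2 and TfR1-deficient replicate 1 were high, and the gaps within a genotype, 1.48 and -1.01, exceeded the genotype difference of -0.12 (SE 0.65, edgeR adjusted p = 0.991).

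*Abcb8*, a transporter of the inner membrane that has been tied to iron leaving mitochondria, was at 47.6 and 39.1 CPM in WT and at 39.7 and 40.6 CPM in TfR1-deficient cells (log2 fold change -0.11, SE 0.18, edgeR adjusted p = 0.967). WT replicate 1 alone stood above the other 3. *Cisd1* (mitoNEET), a cluster protein of the outer mitochondrial membrane, was at 16.1 and 15.4 CPM in WT and at 17.2 and 19.2 CPM in TfR1-deficient cells, without overlap but by a small step (0.21, SE 0.23, edgeR adjusted p = 0.9545). *Cisd2*, its relative in the endoplasmic reticulum, was at 105.1 and 104.7 CPM in WT and at 133 and 117 CPM in TfR1-deficient cells (0.26, SE 0.14, edgeR adjusted p = 0.921), and here too the TfR1-deficient libraries were both higher.

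In the cytosol, *Nubp1* and *Nubp2* form the scaffold on which clusters are built. *Nubp1* (chromosome 16, 10411884 to 10424453) was at 25.2 and 13.8 CPM in WT and at 27.0 and 28.4 CPM in TfR1-deficient cells. WT replicate 2 alone was low, and the log2 fold change of 0.50 (SE 0.33, edgeR adjusted p = 0.934) became 1.01 without WT replicate 1, past the unadjusted threshold, and 0.14 without WT replicate 2. It is the only member on the chromosome of *Tfrc*, 22.2 Mb away in GRCm38.p6; an effect of linked alleles of the floxed strain and an effect of genotype cannot be told apart there. Exons of *Fam18a* on the opposite strand cover 36.9% of its exon bases, and the strand setting of the counting is not given in the sources used here. *Nubp2* was at 86.5 and 91.6 CPM in WT and at 105.0 and 92.0 CPM in TfR1-deficient cells, and WT replicate 2 and TfR1-deficient replicate 2 were almost equal (log2 fold change 0.15, SE 0.14).

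*Ciapin1* and *Ndor1* feed electrons to this scaffold and had opposite signs within their errors. *Ndor1* was at 114 and 113 CPM in WT and at 103 and 93.6 CPM in TfR1-deficient cells (log2 fold change -0.21, SE 0.14, edgeR adjusted p = 0.934), the lower pair without overlap. *Ciapin1* was at 103 and 124 CPM in WT and at 128 and 116 CPM in TfR1-deficient cells (0.11, SE 0.16). *Glrx3* ran at 182 to 202 CPM (0.02, 95% interval -0.33 to 0.37), and its partner *Bola2* at 11.9 to 21.2 CPM (0.26, 95% interval -0.61 to 1.14).

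The cytosolic targeting complex, which places clusters in DNA polymerases, helicases and other client proteins, had the narrowest range of log2 fold changes of the 6 groups, from -0.18 to 0.19, and the libraries of the genotypes overlapped in all 5 of its genes. *Narfl*, the adaptor, was at 44.9 and 54.7 CPM in WT and at 63.1 and 51.0 CPM in TfR1-deficient cells (0.19, SE 0.19, edgeR adjusted p = 0.9545). *Ciao1*, the platform of the complex, was at 54.0 and 37.7 CPM in WT and at 38.2 and 42.9 CPM in TfR1-deficient cells (-0.18, SE 0.23, edgeR adjusted p = 0.9545), and its sign turned without WT replicate 1 (0.12). *Mms19*, *Fam96b* and *Fam96a*, the last of which serves the cytosolic aconitase that doubles as an iron regulatory protein, had log2 fold changes of -0.10, 0.01 and -0.04. The summed level of the 5 genes was 349 and 340.0 CPM in WT and 340.2 and 336 CPM in TfR1-deficient cells.

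The libraries on the same side of the first principal component can also be set against each other, as values with no test: TfR1-deficient replicate 1 with WT replicate 2, and TfR1-deficient replicate 2 with WT replicate 1. The summed macrophage markers were close in the first of these pairs (44.5 and 39.0 CPM) but not in the second (3199 and 991 CPM). In 13 members both differences were above 0, in 6 both were below 0, and in 13 they differed in sign. Only *Iscu* (0.76 and 0.95), *Bola3* (0.53 and 0.63) and *Glrx5* (1.57 and 0.54) reached 0.5 on the log2 scale in both. *Iba57* had 1.99 and 0.47. The larger gap between replicates of a genotype exceeded the genotype difference in 24 of the 32 members. The gap within WT did so in 19 and that within TfR1-deficient cells in 20. Such a gap is between single libraries and the genotype difference is between groups, so they are not like measures. In 11 members WT replicate 2 was above WT replicate 1 while TfR1-deficient replicate 1 was above TfR1-deficient replicate 2. In 10 the reverse held, and in 11 neither. The counts of this paragraph were not made over all genes, so they do not show whether the members differ from other genes.

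**Figure D3:**
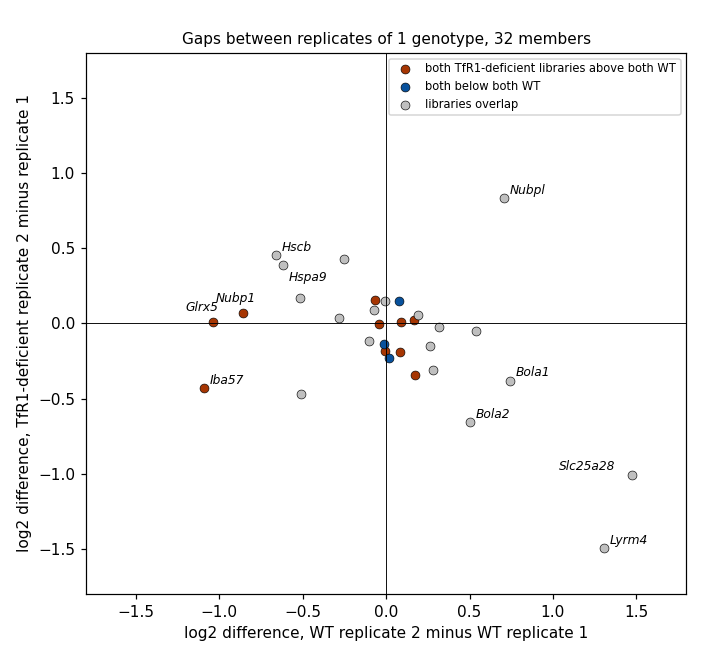
Log2 difference between the WT replicates (x axis) and between the TfR1-deficient replicates (y axis) for the 32 genes, coloured by whether the libraries of the genotypes overlapped. *Lyrm4* (1.31 and -1.50) and *Slc25a28* (1.48 and -1.01) lie far out in the lower right, where WT replicate 2 and TfR1-deficient replicate 1 are the high libraries; *Nubpl* (0.71 and 0.83) is high in replicate 2 of both.

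Other genes of the same pathway, which are not among the 32, were counted in the same way. Of the 6 reported here 5 were tested, *Ftmt* having no count in any library, and 0 of the 5 passed the unadjusted or the adjusted threshold in edgeR or DESeq2. *Ndufab1*, the acyl carrier protein that also sits in the core complex, had the highest value: it was at 29.3 and 24.1 CPM in WT and at 28.02 and 42.4 CPM in TfR1-deficient cells (log2 fold change 0.40, SE 0.27, edgeR adjusted p = 0.936). TfR1-deficient replicate 2 alone stood above the other 3 libraries by more than they differed among themselves. *Abcb10*, a mitochondrial transporter of the inner membrane, had the lowest value, -0.24 (SE 0.56), with 12 to 18 counts per library. The median of the 5 genes was -0.155.

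The proteins that receive the clusters were counted in 4 lists. All 9 iron-sulfur genes of the respiratory chain had a log2 fold change above 0, from 0.01 (*Ndufs1*) to 0.31 (*Uqcrfs1*, the Rieske protein of complex III), with a median of 0.12, but 0 passed the unadjusted threshold and 0 the adjusted one in edgeR or DESeq2, and *Ndufs1* was at -0.10 without TfR1-deficient replicate 2. Their summed level was 1122 and 1191 CPM in WT and 1243 and 1238 CPM in TfR1-deficient cells. Of 11 genes of DNA replication and repair 0 were called, 4 had a positive and 7 a negative value, and the extremes were *Brip1* (0.37, SE 0.69) and *Pold1* (-0.26, SE 0.19). Of 7 genes of RNA modification and translation 0 were called; *Dph1*, of diphthamide synthesis, had the lowest value (-0.65, SE 0.26, edgeR adjusted p = 0.911) and *Cdk5rap1* the highest (0.48, SE 0.25).

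Among the 10 metabolic iron-sulfur proteins tested and reported here, 1 was higher and 1 lower at the unadjusted threshold. The shares of all genes were 1.6% and 2.48%. *Fech*, ferrochelatase, which puts iron into heme and carries a cluster itself, was at 12.0 and 11.1 CPM in WT and at 19.0 and 20.5 CPM in TfR1-deficient cells. Its log2 fold change was 0.77 (SE 0.23), with an unadjusted p of 0.0203 and an adjusted p of 0.911 in edgeR. The unadjusted threshold was missed whichever library was left out, with 0.84 and 0.72 without WT replicates 1 and 2 and 0.82 and 0.71 without TfR1-deficient replicates 1 and 2. *Xdh*, xanthine dehydrogenase of purine breakdown, was at 70.1 and 67.4 CPM in WT and at 48.8 and 44.5 CPM in TfR1-deficient cells, and its log2 fold change was -0.56 (SE 0.14) with an unadjusted p of 0.011 and an adjusted p of 0.911 in edgeR. Without TfR1-deficient replicate 2 it was -0.50 and missed the unadjusted threshold. The highest fitted value of the list was that of *Rsad2*, with a log2 fold change of 0.99 (SE 0.40). It was at 4.66 and 2.81 CPM in WT and at 6.905 and 8.02 CPM in TfR1-deficient cells. Its unadjusted p was 0.0521 and its adjusted p 0.911 in edgeR, and its unadjusted p was 0.0366 where all genes with a count were tested. *Aco1*, the cytosolic aconitase, was at 0.10 (SE 0.16). The medians of the DNA, RNA and metabolic lists were -0.09, -0.05 and -0.03, beside 0.01 for all genes tested.

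**Figure D4:**
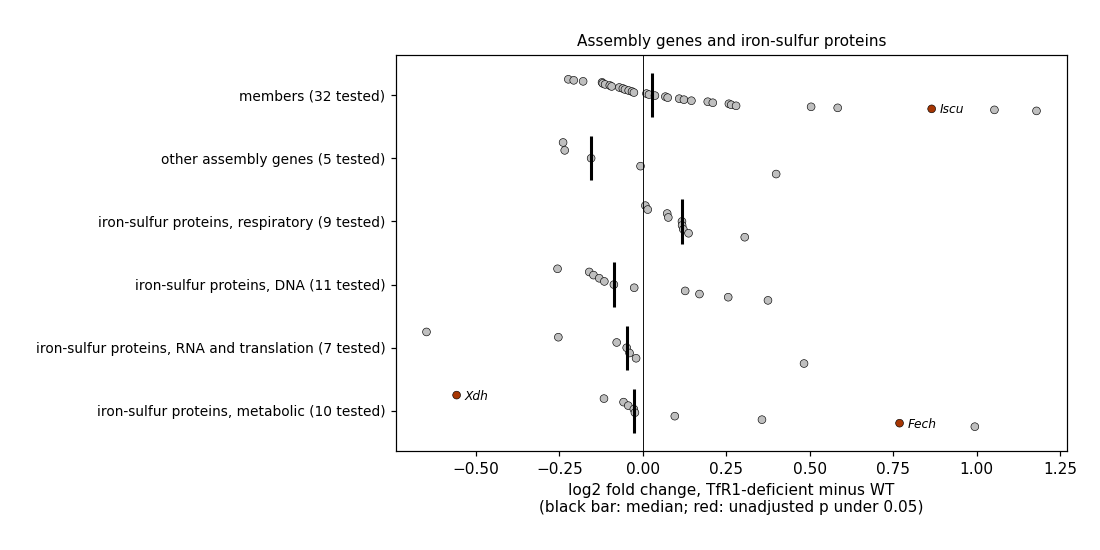
Log2 fold change (TfR1-deficient minus WT) of the 32 genes, of 5 other assembly genes and of 4 lists of iron-sulfur proteins (1 point per gene, black bar for the median). Red points had an unadjusted p under 0.05 in edgeR (*Iscu*, *Fech* and *Xdh*); the other genes are grey, and 0 genes passed the adjusted threshold.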

How the data were processed

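Sorted Treg cells were profiled by RNA-seq in 4 libraries, grouped by the genotype and replicate number of their labels. The submitters' processing notes name Trim Galore 0.6.7, STAR 2.7.9a, featureCounts and mm10, whereas the methods of the study name STAR with mm9. The table the authors deposited holds raw read counts, 1 column per library and 1 row per Ensembl gene; strand and the handling of multiply mapped reads are not given in the sources used here. All rows name a gene. Identifiers run past GENCODE vM1; a symbol and an exon length were found for 32799, and the rest held 0.907% of counts.

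The 12536 genes kept by filterByExpr entered edgeR 4.0.16 (TMM, glmQLFit, glmQLFTest, genotype as the only term) in R 4.3.3, with Benjamini-Hochberg adjustment over all of them. The SE was taken from the log2 fold change and its F statistic. CPM is TMM-scaled, RPKM is CPM per kilobase of vM1 exons, and log2 CPM used a prior count of 2. Totals of 10841939 to 17278448 counts and a common biological coefficient of variation of 0.323 set the precision. Replicates differed by a chi-square per gene of 29.7 (WT) and 46.8 (TfR1-deficient), so each was kept as a sample of its own. Both tools were first tested on simulated data.

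The members, the other lists and the tests were chosen with earlier results of these data known. Named in full were 10 preset members and any with an unadjusted p under 0.05 or a log2 fold change beyond 0.5 in either direction. Of the other lists, genes with an unadjusted p under 0.05 were named, otherwise the extremes. *Rsad2* was added as the highest value of the metabolic list. Exon windows of 50 bases were matched to NCBIM37, and promoters and positions come from RefSeq on GRCm38.p6. Alternatives were DESeq2 1.42.0, other scalings and filters, a replicate block, the omission of each library, and, chosen after seeing the data, a crossed pairing and 2 comparisons of single libraries. Counts by exon and the reads themselves were not used here. Some genes of the lists are not reported here.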

Additional observations from a re-analysis of the deposited data

How the results depend on the processing

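The count of members called at an adjusted p under 0.05 was 0 under every alternative run, and the count lower at the unadjusted threshold was 0 as well. The count higher at the unadjusted threshold, 1 in the fit reported, was 2 with library totals in place of TMM (*Bola3* added), 2 without a count filter and 2 with at least 10 counts in every library (*Iba57* added in both), and from 0 (without WT replicate 2) to 2 (without WT replicate 1) when 1 library was left out. The median of the members ran from 0.032 to 0.18 with 1 library left out, highest without WT replicate 2, and was 0.12 for TfR1-deficient replicate 2 against WT replicate 1 alone.

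Samples with the same replicate number did not deviate together (correlation -0.61). The first principal component also set the libraries apart across replicate numbers, so this value cannot decide whether the numbers mark pairs. A replicate block in edgeR gave 0 members higher. Crossing the pairs, an alternative chosen after seeing the data, gave 4 higher and 0 lower at the unadjusted threshold and 0 at the adjusted one. The shares of all genes given above come from the fit reported, not from this or the other alternatives. The counts of the alternatives can therefore not be set against those shares.

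Of the 32 members, 14 kept their sign in every setting run and 18 turned it in at least 1, of which 16 had an absolute log2 fold change under 0.15; the cause was not tested. With library totals, *Fdx1* was 0.0074 and *Isca2* 0.0041. In fits without 1 library, the lowest and highest log2 fold changes of the members that turned were -1.001 and 0.75 for *Lyrm4*, -0.29 and 0.27 for *Fdx1*, -0.33 and 0.11 for *Fdxr*, -0.26 and 0.42 for *Hscb*, -0.20 and 0.43 for *Hspa9*, -0.27 and 0.26 for *Isca2*, -0.15 and 0.029 for *Nfu1*, -0.20 and 0.54 for *Bola1*, -0.55 and 0.34 for *Nubpl*, -0.73 and 0.83 for *Slc25a28*, -0.25 and 0.047 for *Abcb8*, -0.0080 and 0.25 for *Ciapin1*, -0.061 and 0.091 for *Glrx3*, -0.11 and 0.55 for *Bola2*, -0.41 and 0.12 for *Ciao1*, -0.092 and 0.0048 for *Fam96a* and -0.13 and 0.18 for *Fam96b*; among the iron-sulfur proteins they were -0.103 and 0.107 for *Ndufs1* and -0.298 and 1.704 for *Brip1*. In TfR1-deficient replicate 1 against WT replicate 2, *Fdx1* was 0.47, *Bola1* -0.026, *Abcb8* 0.019, *Glrx3* -0.055, *Ciao1* 0.016, *Mms19* 0.011, *Fam96b* -0.13 and *Ndufs1* -0.13. In TfR1-deficient replicate 2 against WT replicate 1, *Hscb* was -0.046, *Hspa9* -0.022, *Isca2* 0.23, *Nfu1* 0.057, *Nubpl* 0.69 and *Slc25a28* 0.21.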
